A study of Mus musculus with 5 samples.

Results

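The genes described here encode the calcitonin-family peptides and the receptor subunits they bind. The members were 3 peptide genes, Calca, Calcb and Adm, and 4 receptor genes, Calcrl, Ramp1, Ramp2 and Ramp3, read through every probe set that the platform annotation gave to 1 of them alone. A probe set of 1 symbol existed for 6 of the 7 genes, out of 12393 genes so represented on the array. Calca had none and is not analysed here. The set was chosen from values of the same comparison, with the difference of Calcb between the groups already known, so the differences of the members are given as a description and without a p-value. Calcrl had 2 probe sets and the other 5 genes had 1 each, 7 in all, and all 6 genes were among the 8940 that passed the filter on low values. Another 2 probe sets carried the symbols of both Ramp2 and its neighbouring gene Vps25 and were not used.

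Expression was measured in endothelial cells, which line blood vessels, of the thymus, taken from C57BL/6J females of 6 to 8 weeks. The 2 day 4 arrays held cells taken 4 days after sublethal total body irradiation with 550 cGy from a cesium source, with no hematopoietic rescue, and the 3 other arrays held cells of untreated mice. Both groups went through the same sort, for cells without CD45 and EpCAM and with VE-cadherin, and each array held RNA from a pool of several mice. The cell type label read CD45-negative thymic stromal cells for the day 4 arrays and thymic endothelial cells for the untreated ones.

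Calcitonin gene-related peptide (CGRP) and adrenomedullin, peptides of this family, act on a receptor built from parts. Calcrl encodes a seven-helix receptor that reaches the cell surface with a receptor activity-modifying protein. The partner sets which peptide it prefers: with RAMP1 it binds CGRP, and with RAMP2 or RAMP3 it binds adrenomedullin. The receptor signals through the stimulatory G protein and cyclic AMP. Calcb encodes the beta form of CGRP, a vasodilator known best from sensory and enteric neurons. Calca, the gene next to it on chromosome 7, encodes calcitonin and the alpha form. Adm encodes adrenomedullin, which endothelial cells make and which vessels need to form and to keep their barrier.

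The endothelial label was checked against its markers. Cdh5, the gene of VE-cadherin, had a log2 value of 11.39 ± 0.0086 (SD, n = 2) at day 4 and 11.57 ± 0.065 (SD, n = 3) in untreated cells. Pecam1, an endothelial adhesion molecule, stood at 9.86 ± 0.27 and 9.72 ± 0.11. Of 10 endothelial markers 0 lay under a log2 value of 4 on all arrays. Of 5 lymphatic endothelial markers 1, the regulator Prox1, stayed under it on every array. The others did not. Lyve1 had means of 7.61 at day 4 and 8.35 in untreated cells, and Flt4 of 7.94 and 7.99. Those of Pdpn were 6.76 and 6.93, and those of Reln 4.50 and 4.46. Markers of cells that the sort was to leave out were also measured: Ptprc, which encodes CD45, at 6.53 ± 0.22 at day 4 and 6.52 ± 0.40 in untreated cells, and Epcam at 6.42 ± 1.06 and 6.90 ± 0.34. Of 10 pericyte and smooth muscle markers 1 lay under 4 on all arrays, and of 8 fibroblast markers 0. The mean level of the pericyte and smooth muscle list was 8.07 to 8.16 at day 4 and 8.08 to 8.21 in untreated cells. That of the fibroblast list was 8.01 to 8.48 and 8.07 to 8.37. For the endothelial list it was 10.42 to 10.70 and 10.61 to 10.77. The pericyte marker Rgs5 had means of 12.06 and 12.29, above those of Cdh5. The signal of the actin control at its 3' end minus that at its 5' end, a sign of RNA quality, was 1.35 and 1.39 on the day 4 arrays, against 1.59, 1.65 and 1.43 on the untreated arrays, and its part in the results was not tested.

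The RefSeq promoter table (GRCm38.p6) held 3 of the 4 measured members whose arrays did not overlap between the groups, Adm, Ramp1 and Ramp3. Their 250 bases before the start are shown because these are the members whose groups stood apart, 1 of them lower and the other 2 higher at day 4. None of the 3 was called as changed in the fit described below, and the groups stood apart for 41.1% of all genes tested. All lie on the plus strand, Adm at chr7:110627407-110627656, Ramp1 at chr1:91179572-91179821 and Ramp3 at chr11:6658283-6658532. Capitals mark matches on either strand to the cyclic AMP response element TGACGTCA, its short core TGACG, the hypoxia response cores ACGTG and GCGTG, the GC box GGGCGG and the TATA core TATAA.
Adm: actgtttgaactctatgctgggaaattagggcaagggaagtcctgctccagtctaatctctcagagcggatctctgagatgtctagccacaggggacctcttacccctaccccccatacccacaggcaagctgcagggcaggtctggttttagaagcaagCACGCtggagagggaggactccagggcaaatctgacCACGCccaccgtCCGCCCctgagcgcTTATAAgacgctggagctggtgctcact
Ramp1: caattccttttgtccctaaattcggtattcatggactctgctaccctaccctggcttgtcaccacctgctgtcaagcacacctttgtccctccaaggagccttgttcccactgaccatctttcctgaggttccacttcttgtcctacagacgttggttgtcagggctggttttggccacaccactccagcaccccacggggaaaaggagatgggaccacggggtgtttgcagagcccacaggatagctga
Ramp3: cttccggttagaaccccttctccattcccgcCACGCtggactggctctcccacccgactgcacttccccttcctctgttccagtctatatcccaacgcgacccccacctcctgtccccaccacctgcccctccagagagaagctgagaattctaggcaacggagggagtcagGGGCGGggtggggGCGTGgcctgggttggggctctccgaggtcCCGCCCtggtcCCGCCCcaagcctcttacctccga

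The window of Adm held 2 matches to GCGTG, 1 GC box and a TATAA on each strand, which overlap, 27 and 28 bases before the start. The window of Ramp3 held 2 matches to GCGTG and 3 GC boxes, and that of Ramp1 held no match to any of the 6 motifs. No window held TGACG, and so none held TGACGTCA, which contains it. Among 32851 windows of the same length, 28.2% held GCGTG, 32.7% the GC box, 22.8% TATAA, 17.8% TGACG, 16.6% ACGTG and 1.55% TGACGTCA. These matches describe the letters only.

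The peptide genes went different ways. Calcb had log2 values of 3.77 and 2.97 on the day 4 arrays, against 7.07, 6.06 and 6.72 on the untreated arrays. Both day 4 values lay under the level filter of 4 and all untreated values above it, with 2.28 between the nearest arrays of the groups, while the untreated arrays spread over 1.01 and the day 4 arrays over 0.80. The means were 3.37 ± 0.56 (SD, n = 2) at day 4 and 6.61 ± 0.51 (SD, n = 3) in untreated cells, a log2 difference of -3.24 ± 0.35 (SE), or a level 9.46-fold lower. Because the day 4 values are near the background of the array, where GCRMA spreads low values out, the size of the fold rests on background values. Calcb passed the filter through the untreated arrays alone. In these sorted pools, fewer cells that make a transcript and less transcript per cell cannot be told apart.

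Adm differed little and in the other direction. Its log2 values were 7.50 and 7.52 on the day 4 arrays, against 7.12, 7.29 and 7.39 on the untreated arrays. The day 4 arrays lay above all untreated ones, by 0.11 between the nearest arrays, which is less than the spread of 0.27 among the untreated arrays. The log2 difference was 0.24 ± 0.11 (SE), or 1.18-fold, and it was not called.

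**Figure D1:**
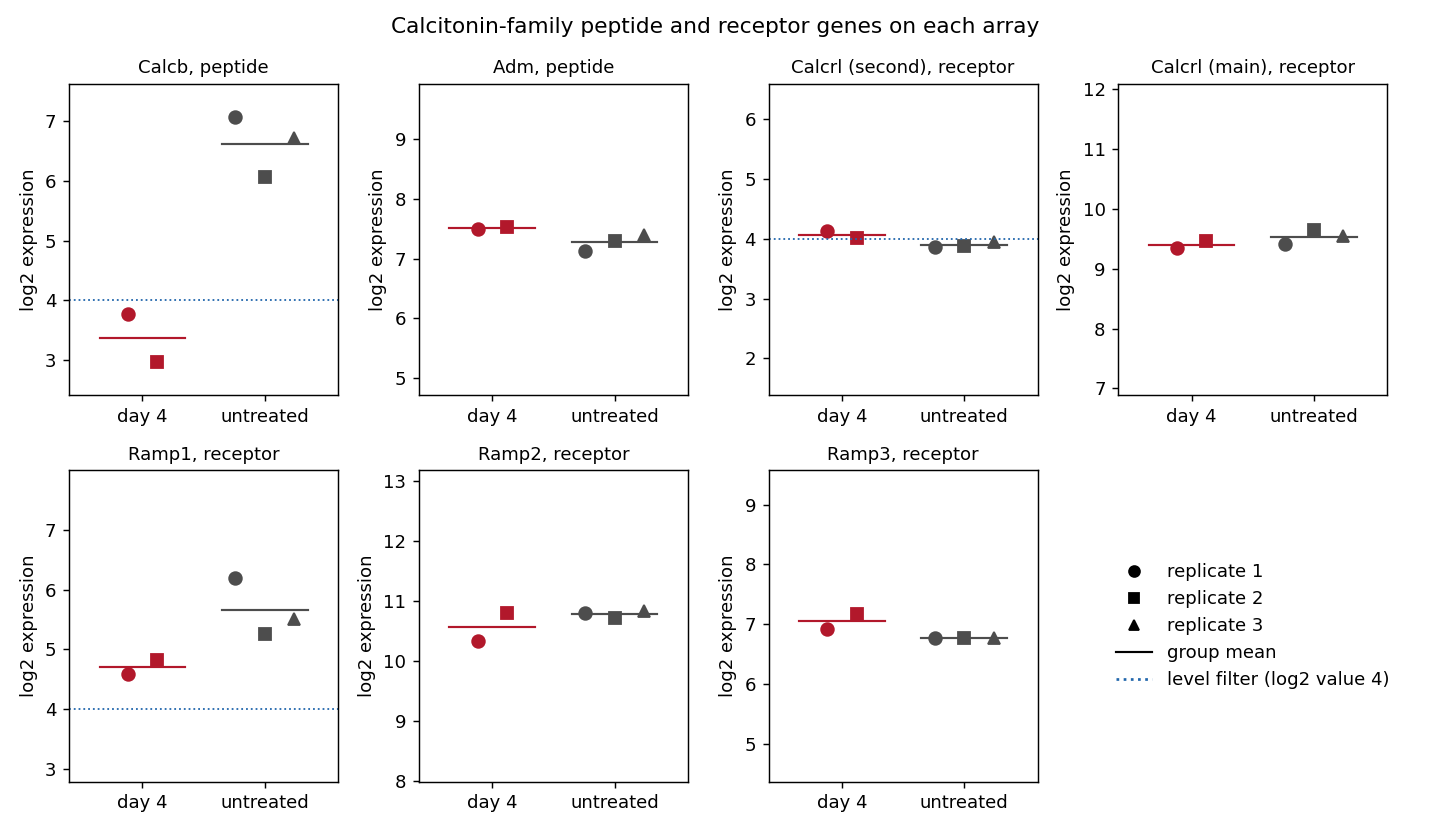
Log2 expression of each probe set of the 6 measured members, with day 4 arrays on the left of each panel and untreated arrays on the right; symbols are arrays, bars are group means, every panel spans the same number of log2 units, and the dotted line is the level filter where it falls in the panel. Calcb sits between 2.97 and 3.77 at day 4 and between 6.06 and 7.07 in untreated cells, while the other genes move by about 1 log2 unit or less.

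Among the receptor genes, the level of Calcrl, the subunit shared by the CGRP and adrenomedullin receptors described above, overlapped between the groups. Its brighter probe set read 9.34 and 9.45 on the day 4 arrays, against 9.41, 9.64 and 9.55 on the untreated arrays. The log2 difference was -0.14 ± 0.11 (SE). The second probe set stood near the level filter, at 4.12 and 4.01 on the day 4 arrays, against 3.86, 3.89 and 3.95 on the untreated arrays, and its difference of 0.16 had the opposite sign. The mean of both probe sets gave 0.013.

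Ramp1, the partner that makes the receptor bind CGRP, was the receptor gene with the widest range over the arrays. It read 4.59 and 4.83 on the day 4 arrays, against 6.19, 5.26 and 5.51 on the untreated arrays. The groups stood 0.43 apart between their nearest arrays, within a spread of 0.93 among the untreated arrays. The means were 4.71 ± 0.17 (SD, n = 2) at day 4 and 5.66 ± 0.48 (SD, n = 3) in untreated cells. The log2 difference of -0.95 ± 0.27 (SE), or 1.93-fold lower, was not called in the fit over all genes. A difference of that size or more, in either direction, was found for 3.22% of the genes tested.

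Ramp2, a partner for adrenomedullin, read 10.34 and 10.81 on the day 4 arrays, against 10.80, 10.71 and 10.83 on the untreated arrays. Day 4 replicate 1 lay below all other arrays and day 4 replicate 2 fell among the untreated ones. The log2 difference of -0.21 ± 0.15 (SE) therefore rested on 1 array: it was 0.027 without day 4 replicate 1 and -0.45 without day 4 replicate 2.

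Ramp3, the other partner for adrenomedullin, read 6.93 and 7.18 on the day 4 arrays, and 6.77 on each of the 3 untreated arrays. Both day 4 arrays lay above the untreated arrays, which differed among themselves by 0.0031. The means were 7.05 ± 0.18 (SD, n = 2) at day 4 and 6.77 ± 0.0016 (SD, n = 3) in untreated cells, a log2 difference of 0.28 ± 0.11 (SE), or 1.22-fold, which was not called. The difference was 0.41 without day 4 replicate 1 and 0.16 without day 4 replicate 2.

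A gene was called when its Benjamini-Hochberg adjusted p in the limma fit over all 8940 genes was under 0.05. Calcb was the 1 member called, lower at day 4, and 0 of 6 members were called higher. Over all genes tested, 2.85% were called, 1.5% higher and 1.35% lower. Since the members were chosen on this comparison, and Calcb passed the filter through the untreated arrays alone, the call of Calcb repeats the values that chose it and nothing is read from the count. The arrays of the groups did not overlap for 4 of the 6 members, Calcb, Adm, Ramp1 and Ramp3, against 41.1% of all genes tested. The median log2 difference of the members was -0.17, against -0.023 over all genes. This median and the count without overlap include the values that chose the set, so nothing is read from them either. Of the 4 receptor genes 0 were called, and 3 of their 4 differences were below 0. The call of Calcb was lost without day 4 replicate 1 (difference -3.64) and without untreated replicate 3 (difference -3.19), where 11 and 34 genes in all were called in place of 255.

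**Figure D2:**
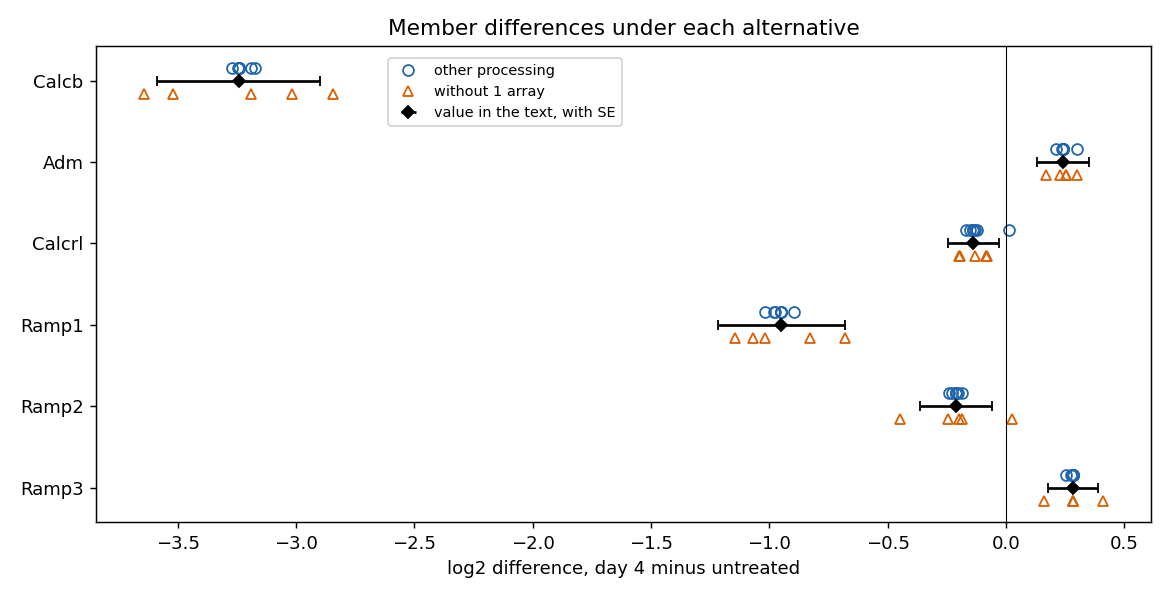
Log2 difference, day 4 minus untreated, of each measured member as given in the text (diamond, with SE), under 9 other ways of processing (circles) and with 1 array left out in turn (triangles). Calcb stays between -3.64 and -2.84, Ramp1 between -1.15 and -0.68, and the values of Calcrl and Ramp2 reach both sides of 0.

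The array values of Calcb were set beside those of other genes as a description, by the Euclidean distance between log2 profiles over the 5 arrays, each centred on its own mean. The 5 nearest of the other 8939 genes were Trbv1 (0.27), a T cell receptor segment, Satb1 (0.41), a chromatin organizer of thymocytes, Ccr9 (0.43), a homing receptor of thymocytes, Myb (0.53), a transcription factor of progenitor cells, and Csn2 (0.63), the gene of the milk protein beta-casein. Their log2 differences lay between -3.66 and -2.83. Such distances follow the size of a difference as much as its shape. For Ramp1 the nearest genes were Lsp1 (0.31), a leukocyte protein, Tk1 (0.33), a thymidine kinase of dividing cells, Asprv1 (0.34), a protease of the epidermis, Chil4 (0.34), a chitinase-like protein, and Dsg2 (0.35), a desmosomal cadherin.

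Markers of other cells of the thymus moved with the groups. The marker lists here and below were chosen with earlier results of these data known. For comparison, 1.5% of all genes tested were called higher and 1.35% lower, and their median log2 difference was -0.023. Of 8 tested thymocyte markers 5 fell and 0 rose in the limma fit, with a median log2 difference of -1.75. Their mean log2 level was 4.06 to 4.08 on the day 4 arrays, against 5.07 to 5.76 on the untreated arrays, where 1 of 10 on the array, Rag2, lay under 4 throughout. Rag1, which cuts antigen receptor genes, read 3.06 and 3.14 on the day 4 arrays, against 7.58, 6.51 and 7.25 on the untreated arrays (limma adjusted p = 0.00566). Cd8b1, a co-receptor chain, read 2.85 and 2.99, against 5.56, 4.73 and 5.35, a difference of -2.30 (limma adjusted p = 0.0124). Both genes passed the filter through the untreated arrays alone, as Calcb did, so their differences and p-values rest on background values. Counts of lower thymocyte markers were 0 without day 4 replicate 1, 2 without day 4 replicate 2, 3 without untreated replicate 1 and 1 without untreated replicate 3.

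Of 10 tested genes of medullary epithelium and its tissue-restricted repertoire, 4 fell and 0 rose, with a median of -1.17. The level of that list was 3.79 to 3.80 on the day 4 arrays, against 4.43 to 4.84 on the untreated arrays, and 5 of 16 genes, Cd80, Csn1s1, Csn1s2a, Ivl and Crp, lay under 4 throughout. Csn2 had the largest difference, -3.66 ± 0.49 (SE), followed by Wfdc18, a secreted whey acidic protein family member, at -2.70 ± 0.38 (SE). Csn2 read 2.93 on day 4 replicate 2, under the filter, so its difference rests on background values in part. The falls of Fezf2 and Krt10 were of 1.17 log2 units each. Fezf2 read 3.72 and 3.47 on the day 4 arrays and passed the filter through the untreated arrays alone. Csn2 and Wfdc18 were known from earlier results of these data when the list was written, so they are given without a p-value. Both are in the count of 4 and in the median, which therefore repeat values already known. Aire, the regulator that lets medullary epithelial cells express genes of other tissues, read 3.95 and 4.50 on the day 4 arrays, against 5.76, 5.24 and 5.20 on the untreated arrays, and missed the threshold (limma adjusted p = 0.0573). The count of 4 was 0 without day 4 replicate 1 and 1 without untreated replicate 3.

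On the untreated arrays, replicate 2 was the lowest of 3 for Calcb, Ramp1, Rag1, Csn2, Wfdc18 and the thymocyte list level. It was also the lowest for Ptprc and for the levels of the endothelial, medullary, macrophage, thymic epithelial, neuron and Schwann cell lists. For the lymphatic, B cell, pericyte and fibroblast lists it was not the lowest. This order is therefore not particular to Calcb or Ramp1. Between the day 4 arrays, Calcb, Csn2 and the thymocyte marker Cd3d were lower in replicate 2 (for Cd3d, 4.18 against 4.91 in replicate 1), while Ramp1 was higher in replicate 2 and Rag1 lay under 4 on both. The part of other cells of the thymus in the values of Calcb and Ramp1 was not tested. General markers of thymic epithelium had 0 of 12 called (3 at an unadjusted p under 0.05 in limma), with a median of -0.60 and levels of 5.54 to 6.41 on the day 4 arrays, against 6.31 to 6.86 on the untreated arrays. Of these 12, 1 was called lower without untreated replicate 2, 1 with an intensity trend and robust fitting, and 4 with the replicate number as a block.

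**Figure D3:**
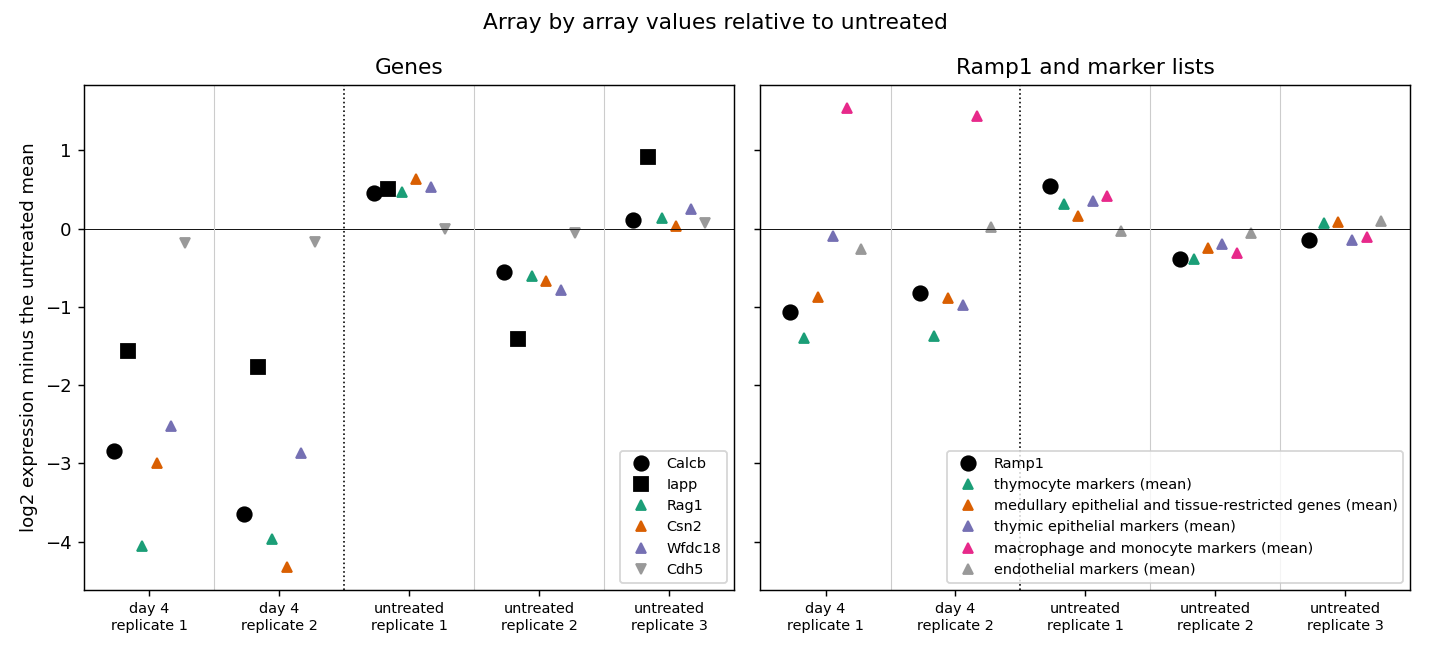
Log2 expression on each array minus the mean of the untreated arrays, for single genes (left) and for Ramp1 and the mean level of marker lists (right); each column is 1 array, day 4 arrays left of the dotted line. Calcb, Rag1, Csn2 and Wfdc18 lie far below 0 on both day 4 arrays, Cdh5 lies close to 0, and macrophage and thymocyte lists lie on opposite sides of 0 at day 4.

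Markers of neurons, the best known source of CGRP, differed widely in signal. Of 15 neuron and neuroendocrine markers on the array, 8 lay under 4 on every array, 5 were tested and 0 were called (2 at an unadjusted p under 0.05 in limma). Their mean level was 3.65 to 3.73 on the day 4 arrays, against 3.66 to 3.81 on the untreated arrays. Of the 5 tested, 1 difference was above 0 and 4 were below. The 2 with an unadjusted p under 0.05 went opposite ways, Uchl1 at -0.57 and Scg3 at 0.56. Stmn2, a neuronal microtubule regulator, read 6.90 and 6.87 on the day 4 arrays, against 7.03, 7.25 and 7.11 on the untreated arrays. Tac1, which encodes the neuropeptide substance P, read 5.06 and 4.62 on the day 4 arrays, against 5.76, 4.42 and 5.09 on the untreated arrays, which overlap. Stmn2, Tac1, Uchl1 and Scg3 were picked after their values were seen. Chga, which encodes the granule protein chromogranin A, read 4.37 and 3.50 on the day 4 arrays, against 3.79, 3.37 and 3.76 on the untreated arrays, and did not pass the filter. Of 5 Schwann cell markers 0 were called (1 at an unadjusted p under 0.05 in limma), with levels of 4.57 to 4.76 at day 4 and 4.35 to 4.55 in untreated cells.

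In the other direction, 4 of 9 tested macrophage and monocyte markers rose and 0 fell, with a median of 1.40. Their level was 7.09 to 7.19 on the day 4 arrays, against 5.34 to 6.07 on the untreated arrays, with Itgam under 4 throughout. Cd163, a hemoglobin scavenger receptor, had a difference of 2.89 and the Fc receptor gene Fcgr1 of 2.37 (limma adjusted p = 0.0113 and 0.0200). Cd163 lay under 4 on every untreated array and passed the filter through the day 4 arrays alone, so its difference and p-value rest on background values. Fcgr1 lay under 4 on untreated replicates 2 and 3, so its difference and p-value rest on such values in part. That count was 0 without day 4 replicate 1, 2 without day 4 replicate 2, 8 without untreated replicate 1 and 1 without untreated replicate 3. Both tested B cell markers, Ms4a1 (-1.45) and Cd79b (-1.14), fell, to means under 4, with 0 called without day 4 replicate 1 or untreated replicate 3 and 1 without day 4 replicate 2 or untreated replicate 1. Ms4a1 and Cd79b passed the filter through the untreated arrays alone. None was called among 10 endothelial, 4 lymphatic, 9 pericyte and smooth muscle or 8 fibroblast markers in limma, where 1, 0, 1 and 1 had an unadjusted p under 0.05 and the medians were -0.11, -0.11, -0.0090 and 0.070.

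Other genes of the family were few. Iapp, which encodes amylin, a peptide hormone of pancreatic beta cells, read 3.21 and 3.02 on the day 4 arrays, against 5.28, 3.36 and 5.69 on the untreated arrays. The day 4 arrays lay below all untreated ones, but untreated replicate 2 stood close to them. Iapp passed the filter through untreated arrays alone. The difference of -1.67 ± 0.65 (SE) did not pass (limma adjusted p = 0.215), and its 3 probe sets gave -1.98 to -1.67. Without untreated replicate 2 it was called, at -2.38. Crcp, which encodes a component that helps the CGRP receptor signal, differed by -0.11 ± 0.091 (SE, limma adjusted p = 0.521). Calcr, the calcitonin receptor, lay under 4 on every array, and Adm2 is not analysed here.

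Genes that make, clear or bind the peptides had 0 of 10 tested members called, 2 at an unadjusted p under 0.05 in limma, and a median of -0.14 against -0.023 over all genes. Pam, the enzyme that gives CGRP and adrenomedullin the amide at their end, read 6.74 and 7.29 on the day 4 arrays, against 6.96, 6.91 and 7.15 on the untreated arrays, which overlap. Ackr3, a receptor that takes up adrenomedullin without G protein signalling, read 10.21 and 10.30 on the day 4 arrays, against 10.53, 10.46 and 10.77 on the untreated arrays. Its groups did not overlap, and the difference of -0.34 ± 0.12 (SE) did not pass (limma adjusted p = 0.189).

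Downstream of the receptor, 1 of 25 tested genes of the stimulatory G protein, cyclic AMP and protein kinase A was called, against 2.85% of all genes tested. Nothing is read from a count of 1. Adcy7, an adenylyl cyclase, rose to 5.63 and 5.56 on the day 4 arrays, against 4.92, 4.56 and 4.70 on the untreated arrays, a difference of 0.87 ± 0.13 (SE, limma adjusted p = 0.0294). That call held without untreated replicate 1, at 0.97, and was lost without any other single array, at 0.78 to 0.91, and with array weights. The part of other cells of the thymus in the values of Adcy7 was not tested. The median over the list was 0.11, against -0.023 over all genes, and 4 of the 25 had an unadjusted p under 0.05. Gnas, which encodes the stimulatory G protein subunit, differed by -0.13 ± 0.12 (SE, limma adjusted p = 0.548), and Nos3, the endothelial nitric oxide synthase, by 0.22 ± 0.094 (SE, limma adjusted p = 0.244).

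Of 14 tested genes known to respond to cyclic AMP, 0 were called in limma and 5 had an unadjusted p under 0.05. The difference was above 0 for 12 of the 14, with a median of 0.20 against -0.023 over all genes. The groups did not overlap for 7, or 50%, against 41.1% of all genes tested. The shares of all genes with such a p or with a difference above 0 are not given here. Nothing is therefore read from these counts. The list shares Pde4b with the signalling list. Of 5 tested receptors of other ligands that use the same G protein, 0 were called and 0 had an unadjusted p under 0.05 in limma, with a median of 0.0054, and another 5 on the array lay under 4 throughout.

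**Figure D4:**
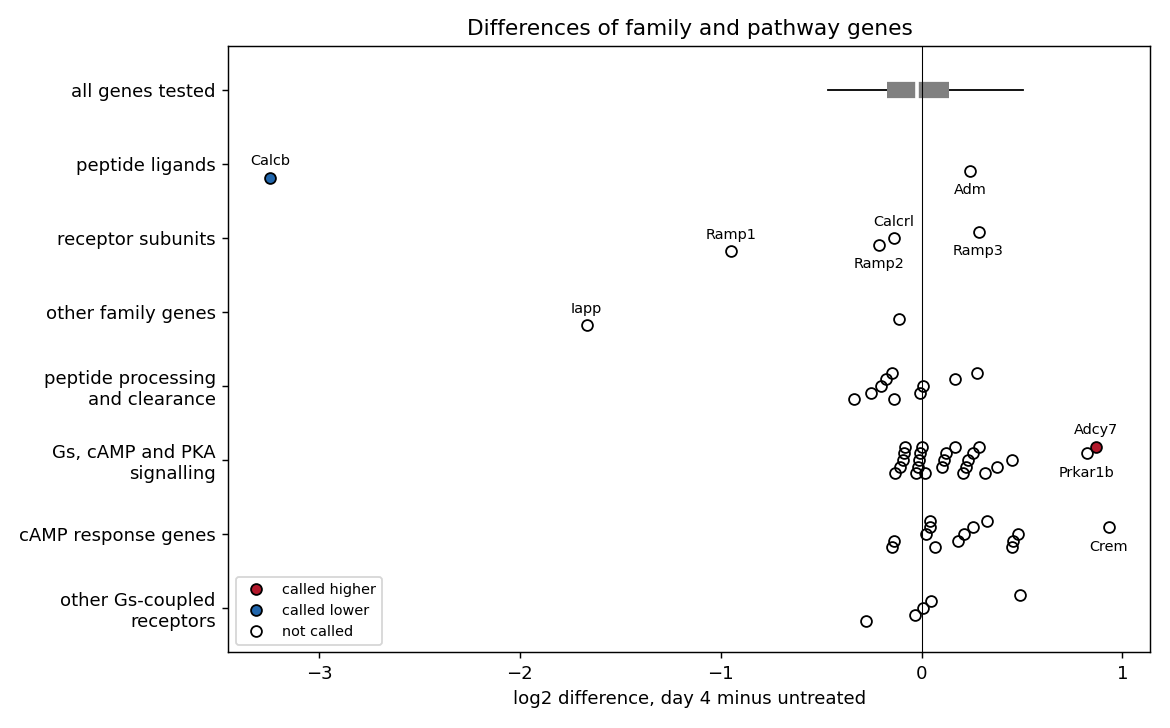
Log2 difference, day 4 minus untreated, of every tested gene of the family and of the pathway lists, filled where called, beside the spread of all 8940 genes (bar from the 25th to the 75th percentile, line from the 5th to the 95th). All genes lie mostly between -0.47 and 0.51, Calcb lies at -3.24 and Adcy7 at 0.87.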

How the data were processed

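The deposited log2 values, 1 per probe set and array for 5 arrays, came from GCRMA, which the authors ran, per the submitters' processing notes. The GCRMA version, and whether it was run on all arrays at once, are not given in the sources used. GCRMA sets the arrays to a common distribution, which hides changes shared by most genes. No depth exists for arrays; their number limits the precision.

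Of 22690 probe sets, 20380 had 1 gene symbol and 20351 of these matched RefSeq genes by Entrez identifier. A probe set was kept with a log2 value above 4 on at least 2 arrays, and a gene was its probe set with the highest mean. Day 4 was compared with untreated by lmFit and eBayes of limma 3.58.1 (R 4.3.3), two-sided, with Benjamini-Hochberg adjustment over all genes. The fit had 3 residual and 3.29 prior degrees of freedom. It was tested on simulated data. Alternatives were quantile normalization, median centring, no filter or one at 6, the mean of probe sets or every probe set, an intensity trend with robust fitting, a block for replicate number, array weights, and each array left out. Because arrays are pools of mice, p-values measure the spread between pools, which may be partly technical.

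The members, the 5 pathway lists and the 11 marker lists were chosen with earlier results of these data known. The share of all genes with an unadjusted p under 0.05 is not given, so nothing is read from counts at that threshold. Genes named were all members, the 2 called genes of each list with the largest rise and fall, 17 genes set by name, and the 5 genes nearest in profile to the most variable peptide and receptor gene. Fezf2, Krt10, Stmn2, Tac1, Uchl1, Scg3, Cd3d, Rgs5, Lyve1, Flt4, Pdpn, Reln and the genes under the filter were named after their values were seen. Figures used matplotlib 3.10.9.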

Additional observations from a re-analysis of the deposited data

How the results depend on the processing

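The direction of Calcb, Adm, Ramp1 and Ramp3 was the same under every alternative that gave a value; Ramp1 had none with a level filter at 6. Calcrl was 0.013 with the mean of probe sets. Without 1 array in turn, Ramp2 lay between -0.45 and 0.027, Ramp3 between 0.16 and 0.41 and Calcb between -3.64 and -2.84. Genes called in all were 255, but 86 with array weights, 418 with an intensity trend and robust fitting, and 11 to 341 without 1 array. Replicate numbers are shared by the groups, but no label says what a shared number means, so pairing was not established. The deviations of same-numbered arrays from their group means correlated at 0.16 and 0.078. With 2 day 4 arrays, their deviations mirror each other, so these values cannot decide whether arrays were paired. With the replicate number as a block 481 genes were called, and Calcb was at -3.19. No day 4 array shares the number of untreated replicate 3, so the Calcb difference is the same as without that array. The block also left fewer residual degrees of freedom than the 3 of the main fit. Calls in the cyclic AMP and protein kinase A signalling list, 1 as reported, were 2 with the trend, 0 with array weights and 0 to 2 without 1 array. Calls among cyclic AMP response genes, 0 as reported, were 1 with the trend, 1 with the replicate block and 0 to 2 without 1 array. Calls among other family genes were 0 to 1 without 1 array. Among marker lists, array weights called 2 thymocyte, 1 medullary, 2 macrophage and 1 B cell marker, in place of 5, 4, 4 and 2, and the replicate block called 9 macrophage, 4 thymic epithelial, 1 lymphatic, 1 Schwann cell and 1 fibroblast marker, in place of 4, 0, 0, 0 and 0. The cause of these changes was not tested, other than that leaving out an array leaves fewer samples. Signal over background limits Calcb, whose day 4 values lie under the level filter.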

Other observations

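Among the signalling and response genes that missed the threshold, the largest differences were those of Crem, a cyclic AMP responsive repressor, at 0.93 ± 0.19 (SE, limma adjusted p = 0.0633), and of Prkar1b, a regulatory subunit of protein kinase A, at 0.82 ± 0.16 (SE, limma adjusted p = 0.0575). Both were picked after their values were seen.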
